A study of Homo sapiens with 9 samples.

Results

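A set of 8 human genes of antiviral defence was followed through the differentiation of embryonic stem cells towards otic progenitors, the precursor cells of the inner ear. They are the RNA sensors DHX58 and IFIH1, the DNA sensor IFI16, the interferon-induced partner proteins IFI35 and NMI, the transcription factor IRF1, and the effectors ISG20 and IFITM1. The set was chosen by measured values of these arrays, since DHX58, IFI35 and NMI were lower at day 14 than at day 0, so every day 14 against day 0 value of the 8 genes is given as a description, with no test. All 14 probe sets that the platform annotation gives to only 1 of these genes were taken, out of 41091 probe sets with a single gene. A gene's main probe set is the one with its highest average over all 9 arrays. The 8 genes stand among 19775 genes measured, over which all tests ran.

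Expression was measured on Affymetrix arrays in Shef3, H14 and Shef1, which are 3 established lines of human embryonic stem cells (hESC). In the FGF3+10 group, cells were dissociated, plated on laminin and held to day 14 in the serum-free medium DFNB to which FGF3 and FGF10 were added, each at 50 ng/ml. The DFNB group was treated in the same way without added FGFs, and the hESC group was undifferentiated and untreated, taken at day 0 from inactivated mouse feeder cells, in a serum replacement medium that held basic FGF at 4 ng/ml. Each group held 3 arrays, 1 per line, so the spread within a group is the spread between lines, and repeat cultures of a line were not analysed here. Day 14 cells thus differ from day 0 cells in age, feeder, matrix and medium at once, and these cannot be told apart.

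Cells detect viral RNA in the cytosol through the RIG-I-like receptors. IFIH1 (also called MDA5) binds long double-stranded RNA and signals through the adaptor MAVS to induce type I interferon, while DHX58 (also called LGP2) lacks the signalling domains and tunes its relatives. Interferon then acts through its receptors and the JAK-STAT pathway on genes with interferon-stimulated response elements in their promoters, and pluripotent cells are known for a weak response to interferon combined with a standing expression of some of its target genes.

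The promoters of 7 of the 8 genes were matched in RefSeq (GRCh38.p14), and the 4 among them whose main probe sets separated the hESC arrays from the day 14 arrays are printed to show where such elements lie. Each runs from 200 bases before the annotated start to 20 bases after it, 5′ to 3′ on the gene's own strand. Capitals mark matches to GAAANNGAAA, a core of the interferon-stimulated response element, read on both strands. The regions are chr11:313840-314059 on the plus strand for IFITM1, chr15:88638816-88639035 on the plus strand for ISG20, chr2:151289649-151289868 on the minus strand for NMI and chr17:43006584-43006803 on the plus strand for IFI35.
IFITM1: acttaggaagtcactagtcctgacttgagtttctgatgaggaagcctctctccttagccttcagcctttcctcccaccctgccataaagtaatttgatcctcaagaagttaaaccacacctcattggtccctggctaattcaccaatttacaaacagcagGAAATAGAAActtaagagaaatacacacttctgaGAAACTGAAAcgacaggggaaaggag
ISG20: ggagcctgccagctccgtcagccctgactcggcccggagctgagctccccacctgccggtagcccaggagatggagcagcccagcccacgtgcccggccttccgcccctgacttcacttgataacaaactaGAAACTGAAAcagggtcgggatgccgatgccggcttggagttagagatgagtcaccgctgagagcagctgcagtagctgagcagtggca
NMI: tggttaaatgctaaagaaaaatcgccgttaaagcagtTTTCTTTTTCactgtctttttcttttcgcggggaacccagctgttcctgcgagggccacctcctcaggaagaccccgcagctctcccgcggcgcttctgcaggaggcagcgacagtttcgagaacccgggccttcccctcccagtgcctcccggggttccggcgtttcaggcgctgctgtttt
IFI35: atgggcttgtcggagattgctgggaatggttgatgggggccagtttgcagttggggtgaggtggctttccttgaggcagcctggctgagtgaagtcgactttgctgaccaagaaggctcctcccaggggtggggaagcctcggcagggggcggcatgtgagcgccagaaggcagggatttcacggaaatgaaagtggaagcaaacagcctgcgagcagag

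IFITM1 held 2 matches, at -40 to -31 and at -6 to 3, counted from 0 at the annotated start. ISG20 held 1, at -69 to -60, and NMI 1 on the opposite strand, at -163 to -154. IFI35 and IRF1 held none, and neither did the 2 IFI16 starts in the RefSeq table. These IFI16 starts, and the ISG20 start shown, lie inside the gene spans given with the values, so a further start at the outer end of those spans was not searched. IFIH1, whose levels did not separate the groups, held 3, of which 2 overlap. The search covered 250 bases before to 50 after each start, and a match occurs in 3.57% of all 35116 promoters of that length. For TTCNNNGAA, the palindromic core of the interferon-gamma activated site, there was 1 match each in IFI35, NMI, IRF1 and IFITM1, against 7.66% of all promoters. In IFITM1 the 2 motifs overlap. These are matches of letters and were not tested as binding sites.

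The values are the deposited ones, on a log scale whose base no source used here states; log2 is assumed, and the median of every array was 3.20. Values ran from -14.4 to 13.3 with no floor. Arrays have no read depth, and their number limits the precision. No detection calls were used, and low values are noisy: the median spread within groups (SD) was 0.97 for the 2503 genes with a mean level below 0 and 0.50 for the 7667 genes between 4 and 8. Over all genes the median difference from hESC was -0.19 in FGF3+10 and -0.19 in DFNB, against -0.01 and -0.03 after quantile normalisation, so differences are read against that shift. Of 9 measured pluripotent cell markers, 8 averaged between 9.42 and 11.88 in hESC. The exception, ZFP42, was at -0.48 in hESC Shef1 against 10.47 and 9.23 in the other lines. Poly-A spike-ins, added before labelling, averaged 7.43 to 7.50 on the Shef1 arrays and 5.04 to 5.72 on the other arrays.

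Of the 8 genes, 5, DHX58, IFI35, NMI, ISG20 and IFITM1, stood lower on all 6 day 14 arrays than on all 3 hESC arrays, while IFIH1, IRF1 and IFI16 overlapped. Such a separation downwards was found in 8.02% of all genes. In FGF3+10 alone 5 of 8 lay below all hESC arrays, against 11.3% of all genes, and in DFNB alone 5 of 8, against 14.3%. None lay above all hESC arrays, against 5.68% of all genes in FGF3+10 and 7.8% in DFNB. These contrasts chose the set and share the hESC arrays, so the counts describe it only. In bulk samples fewer cells of a type and less RNA per cell cannot be told apart.

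**Figure D1:**
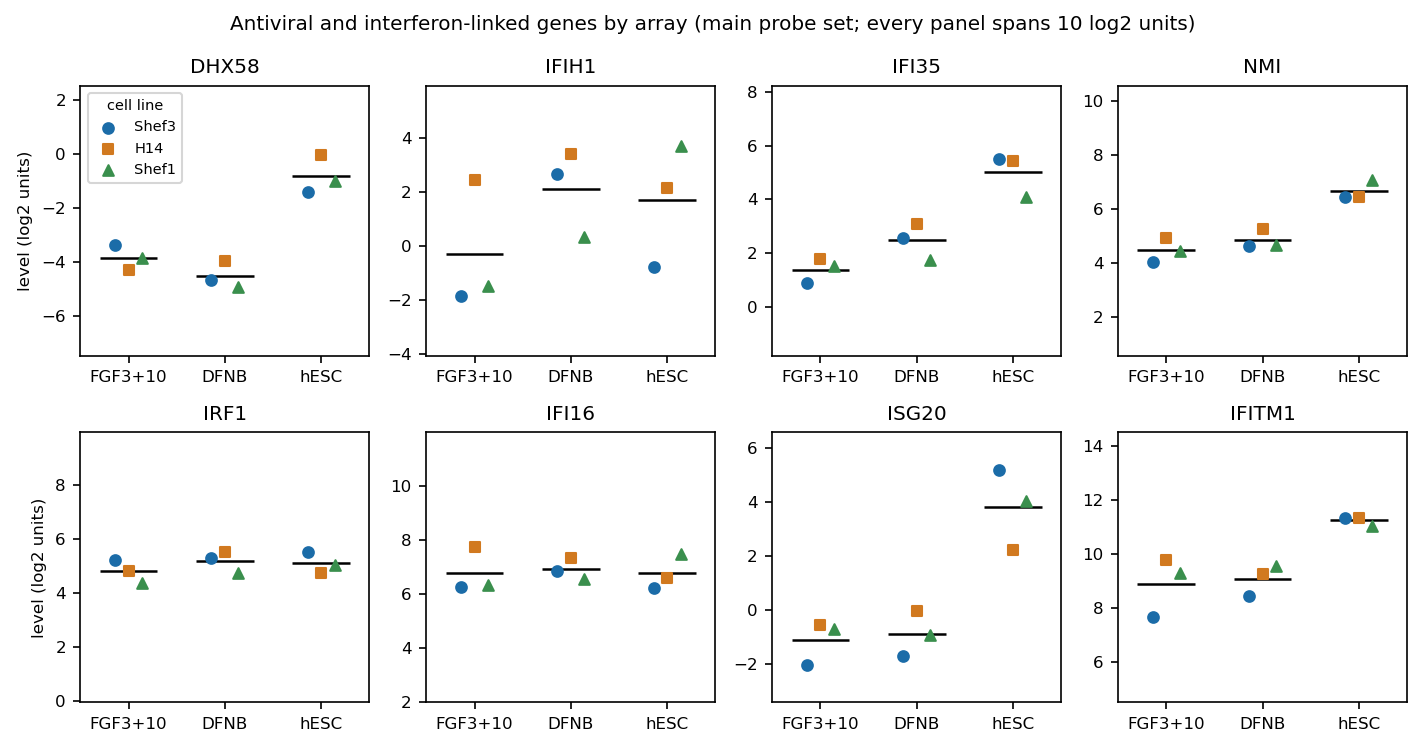
Level of each gene (main probe set, log2 units) on the 9 arrays, by group on the x axis; points are cell lines and bars group means of 3 arrays. DHX58, IFI35, NMI, ISG20 and IFITM1 show no overlap between the day 14 arrays and the hESC arrays, while IFIH1, IRF1 and IFI16 overlap.

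Among the sensors, DHX58 (chr17:42101411-42112714) measured -3.38 in Shef3, -4.30 in H14 and -3.84 in Shef1 with FGF3+10. In DFNB it measured -4.67, -3.96 and -4.92 in the same order of lines, and in hESC -1.40, -0.04 and -1.01. Every day 14 array was thus below every hESC array, and the 2 media overlapped. The difference from hESC was -3.02 in FGF3+10 and -3.70 in DFNB. All 9 arrays lay below level 4 and below the common array median, where a gene may be close to background, so with values below 4 set to 4 no DHX58 difference remains. Its spread within groups was 0.56.

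IFIH1 (chr2:162267074-162318684) had no common direction. Its main probe set measured -1.82 in Shef3, 2.45 in H14 and -1.45 in Shef1 with FGF3+10, and 2.68, 3.42 and 0.34 in DFNB. In hESC it measured -0.77, 2.17 and 3.71. The groups overlapped, and the lines went different ways: the difference from the line's own hESC array was -5.16 in FGF3+10 and -3.37 in DFNB for Shef1, and 0.28 and 1.25 for H14. The mean difference from hESC was -1.98 in FGF3+10 and 0.44 in DFNB, and without Shef1 it was -0.39 and 2.35. Without Shef3 the DFNB difference was -1.06. The other probe sets of IFIH1, both also overlapping between groups, correlated with the main one at 0.55 and 0.32 over the 9 arrays. All 9 arrays of the main probe set were below 4.

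IFI16 (chr1:158999976-159055151), a PYHIN-family protein that senses DNA in the nucleus, measured 6.27 in Shef3, 7.75 in H14 and 6.33 in Shef1 with FGF3+10. It measured 6.87, 7.35 and 6.57 in DFNB, and 6.23, 6.61 and 7.49 in hESC. The group means of 6.78 ± 0.83, 6.93 ± 0.39 and 6.78 ± 0.64 (SD, n = 3 each) did not differ beyond the spread between lines. Beneath them the lines diverged: the difference from hESC was 1.14 in FGF3+10 and 0.74 in DFNB for H14, and -1.15 and -0.92 for Shef1. A second probe set gave the same picture, with 1.22 and 0.96 for H14 and -1.39 and -1.01 for Shef1, and it correlated with the main one at 0.99 over the 9 arrays. The third gave larger values in the same directions, 5.03 and 4.62 for H14 and -2.75 and -5.34 for Shef1, at a correlation of 0.70 with the main probe set.

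**Figure D2:**
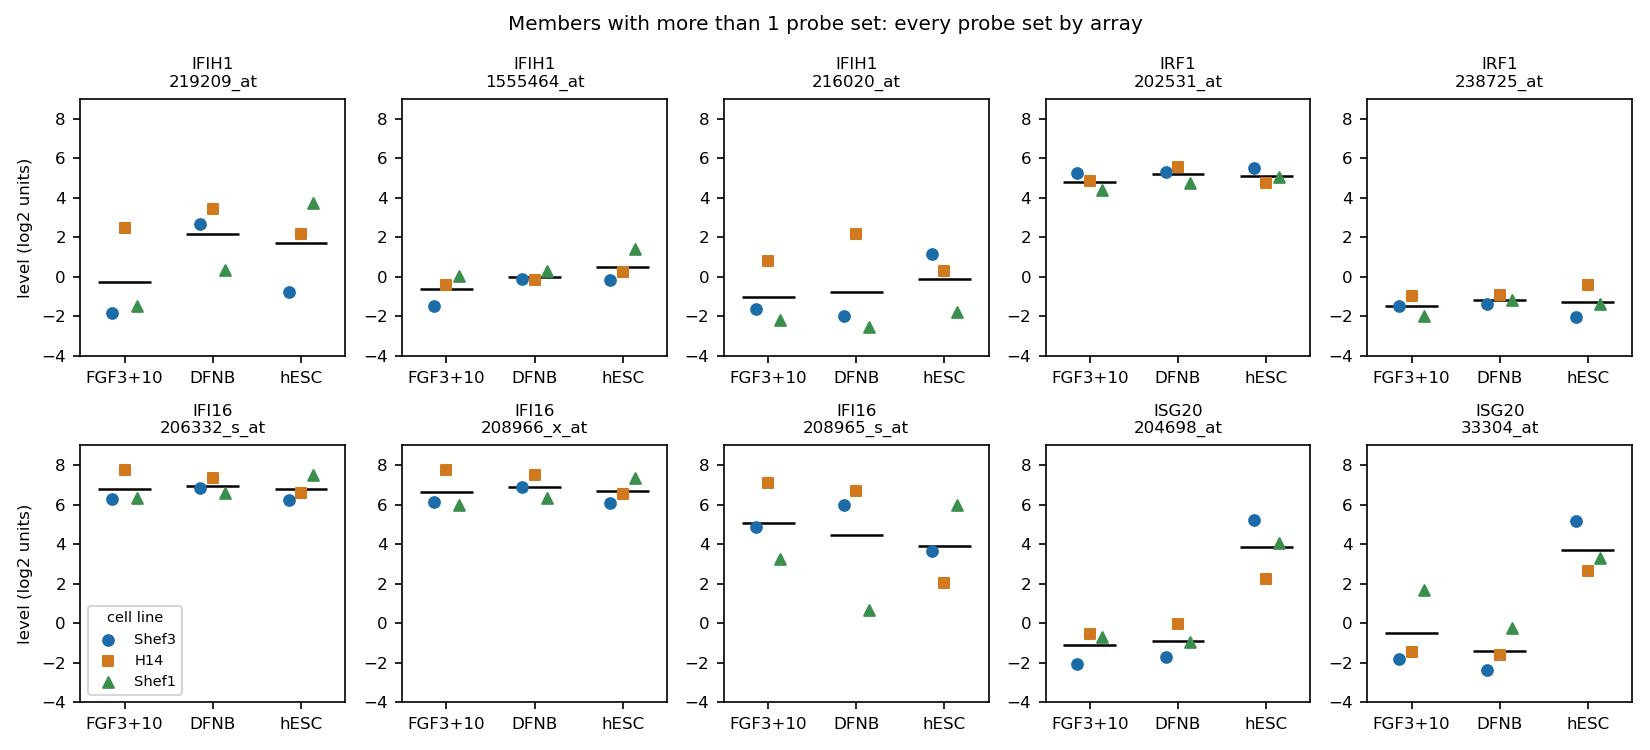
Level (log2 units) of every probe set of the 4 genes with more than 1, by group on the x axis; points are cell lines and bars group means of 3 arrays. In all 3 IFI16 probe sets the Shef1 level is lower and the H14 level higher at day 14 than in hESC, and both ISG20 probe sets separate day 14 from hESC.

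IFI35 and NMI are interferon-induced proteins that share NID domains and bind each other. IFI35 (chr17:43006784-43014456) measured 0.90 in Shef3, 1.78 in H14 and 1.53 in Shef1 with FGF3+10, and 2.59, 3.11 and 1.77 in DFNB. In hESC it measured 5.51, 5.42 and 4.08. The hESC arrays were the highest, and within each line FGF3+10 was below DFNB, with differences of -1.68, -1.33 and -0.25. The difference from hESC was -3.60 in FGF3+10 and -2.52 in DFNB. All 6 day 14 arrays lay below 4, and setting values below 4 to 4 shrinks both differences, to -1 in FGF3+10 and in DFNB.

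NMI (chr2:151270470-151289668) kept its whole range above 4. It measured 4.01 in Shef3, 4.93 in H14 and 4.44 in Shef1 with FGF3+10, 4.63, 5.26 and 4.64 in DFNB, and 6.42, 6.44 and 7.08 in hESC. The lowest hESC array stood 1.15 above the highest day 14 array, DFNB H14. The group means were 4.46 ± 0.46, 4.84 ± 0.36 and 6.65 ± 0.38, so the difference from hESC was -2.19 in FGF3+10 and -1.80 in DFNB. Setting values below 4 to 4 left both the same. Over the 9 arrays NMI correlated with IFI35 at 0.90, with ISG20 at 0.93 and with IFITM1 at 0.91, a description that rests largely on the shared step between hESC and day 14.

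IRF1 (chr5:132481609-132490773), a transcription factor that binds interferon response elements, did not separate the groups. With FGF3+10 it measured 5.23 in Shef3, 4.84 in H14 and 4.37 in Shef1, in DFNB 5.30, 5.54 and 4.76, and in hESC 5.53, 4.75 and 5.06. The group means of 4.81 ± 0.43, 5.20 ± 0.40 and 5.11 ± 0.39 lay within the spread of each other. Its second probe set, below 0 on all arrays, also overlapped, at -1.47 ± 0.51, -1.16 ± 0.23 and -1.28 ± 0.81. The correlation between the probe sets was -0.08.

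Of the effectors, ISG20 (chr15:88635632-88656483), an exonuclease that degrades viral RNA, measured -2.04 in Shef3, -0.53 in H14 and -0.71 in Shef1 with FGF3+10. It measured -1.68, -0.03 and -0.93 in DFNB and 5.21, 2.25 and 4.06 in hESC. The media overlapped and all hESC arrays were higher. The difference from hESC was -4.93 in FGF3+10 and -4.72 in DFNB, and within lines it spanned -7.25 in Shef3 to -2.78 in H14 with FGF3+10. The second ISG20 probe set separated the same arrays, with means of -0.51 ± 1.90, -1.40 ± 1.09 and 3.71 ± 1.32, and correlated with the main one at 0.90. Since 7 of 9 arrays lay below 4, both differences of the main probe set were -0.42 with values below 4 set to 4.

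IFITM1 (chr11:314040-315272), a membrane protein that blocks the entry of viruses, was the member furthest from the low range. It measured 7.64 in Shef3, 9.76 in H14 and 9.28 in Shef1 with FGF3+10, 8.44, 9.23 and 9.55 in DFNB, and 11.34, 11.33 and 11.04 in hESC. The SD between lines was 1.11 in FGF3+10, 0.57 in DFNB and 0.17 in hESC. Each day 14 array stood below all hESC arrays, with a difference of -2.35 in FGF3+10 and -2.16 in DFNB. A probe set annotated to both IFITM1 and IFITM2 was not used. Sequence shared within the IFITM family could still reach the probe set taken, which the annotation gives to IFITM1 alone.

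By cell line, the 5 genes with lower day 14 levels were lower at day 14 in all 3 lines. The median day 14 minus hESC difference of the 9 measured pluripotent markers, averaged over the media, ran from -4.65 (Shef3) through -2.13 (H14) to -0.19 (Shef1). In Shef1 the same difference was -3.36 for DHX58, -2.43 for IFI35, -2.54 for NMI, -4.88 for ISG20 and -1.63 for IFITM1. DNMT3B, a DNA methyltransferase of pluripotent cells, ran -6.56 in Shef3, -2.40 in H14 and -0.07 in Shef1. In Shef1 the markers ran from -1.35 for NANOG to 0.43 for SALL4, and ZFP42 was already at -0.48 in hESC Shef1. NMI ran -2.10 in Shef3, -1.34 in H14 and -2.54 in Shef1, so its smallest step was in H14. IFITM1 ran -3.30, -1.84 and -1.63 over the same lines and IFI35 -3.77, -2.98 and -2.43, both in the order of the pluripotent markers. DHX58 (-2.63, -4.09 and -3.36) and ISG20 (-7.07, -2.53 and -4.88) did not follow that order. Each line contributes 1 hESC array, and the difference between lines was not tested. The Shef1 arrays are also those with the higher poly-A spike-ins, whose part in these values was not tested.

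**Figure D3:**
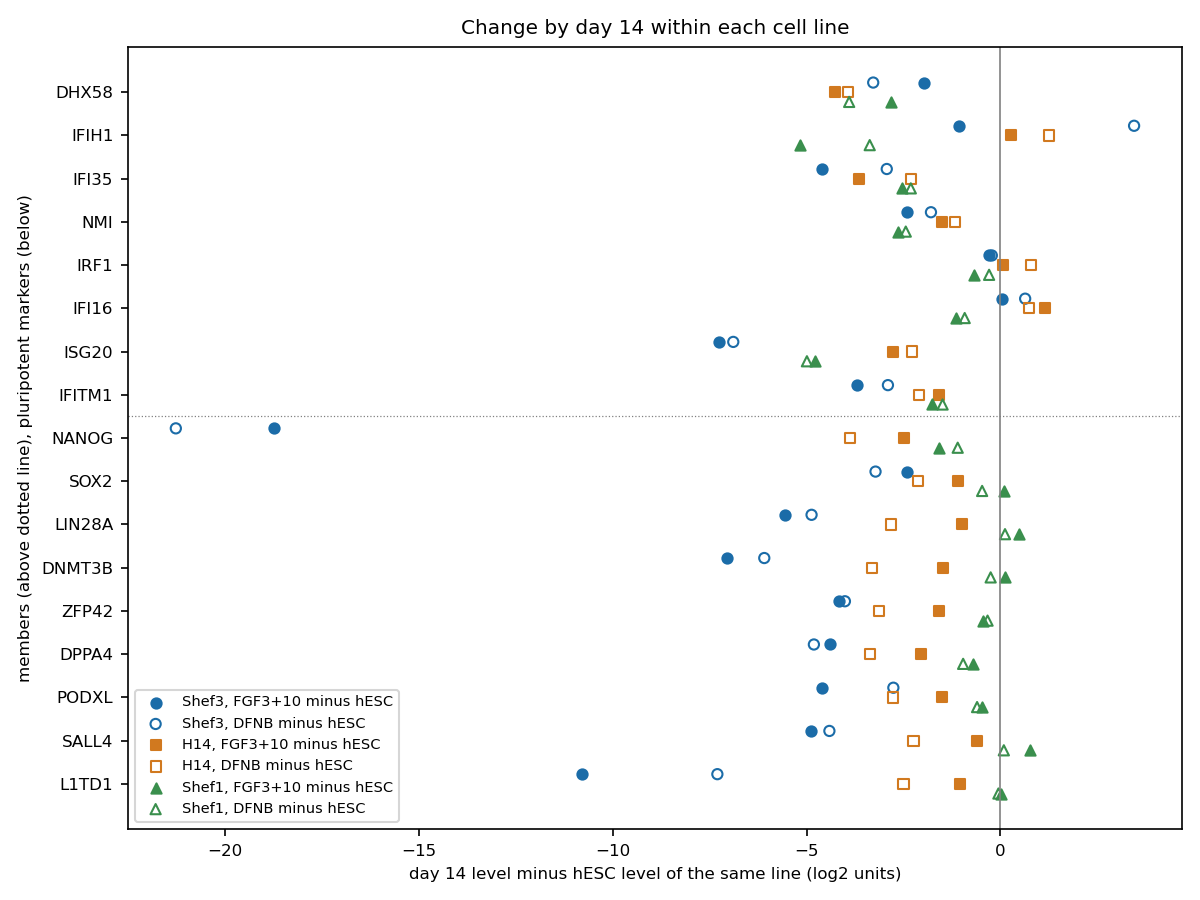
Day 14 minus hESC level within each line (x axis, log2 units) for the 8 genes above the dotted line and 9 pluripotent markers below it; filled points are FGF3+10 and open points DFNB, with shape and colour for the line. The Shef1 points of the pluripotent markers have a median of -0.19 over the media, with NANOG the lowest at -1.59 in FGF3+10 and -1.10 in DFNB, where they lie beside those of IFITM1, at -1.76 and -1.49.

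Among marker lists, the neural sums of all day 14 arrays lay above those of all hESC arrays and the pluripotent sums below them, while the mesenchyme and endothelium sums overlapped, and the blood sums overlapped through DFNB H14. The summed log2 level of 8 measured neural progenitor markers was 60.3 to 70.7 in FGF3+10, 55 to 69 in DFNB and 41.2 to 49.4 in hESC. For the 9 measured pluripotent markers of 10 it was 40.6 to 85.3, 44.4 to 82 and 85.5 to 103.1. For the 10 mesenchyme markers, all measured, it was 72.4 to 101.4, 87.3 to 106 and 86.2 to 88.5. Blood and macrophage markers, of which 8 of 10 were measured, summed to 8.9 to 11, 8.4 to 15 and 13.4 to 18.4. Of those 8, 6 genes, PTPRC, CD14, AIF1, CD163, SPI1 and CD3E, were below 4 on all 9 arrays, and LYZ averaged 2.43, 2.44 and 4.58. Endothelium markers, all 8 measured, summed to 23.6 to 30.8, 29 to 31.3 and 21.9 to 28.5, with CDH5 and ESAM below 4 on all arrays. The part of these cell types in the differences was not tested. The GAPDH control's 3′ minus 5′ level was 0.14 to 0.31, 0.18 to 0.21 and 0.23 to 0.53 in the 3 groups.

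Whether added FGF3 and FGF10 moved these genes was tested, since the choice of the set did not use that contrast. No member passed in limma with Benjamini-Hochberg adjustment over all genes (adjusted p = 1 for each of 8), as for 0% of all genes. At an unadjusted p below 0.05 there were 0 of 8 members and 300 of 19775 genes. The difference FGF3+10 minus DFNB was -2.42 ± 1.46 (SE, n = 3 and 3 arrays) for IFIH1, -1.09 ± 0.51 for IFI35 and 0.68 ± 0.45 for DHX58. For NMI it was -0.39 ± 0.36, for IRF1 -0.39 ± 0.37, for ISG20 -0.22 ± 0.79, for IFITM1 -0.18 ± 0.55 and for IFI16 -0.14 ± 0.50. The IFIH1 difference was -1.38 without Shef3, -1.09 as the mean of its probe sets and -1.53 with array weights. The DHX58 difference was 0.37 without Shef3, 1.19 without H14 and 0.39 with array weights, and that of IRF1 was -0.24 without H14. Both IFI35 and ISG20 were at 0 with values below 4 set to 4. Of the 8 values 7 were negative in the fit to all arrays, against 9789 of 19775 over all genes. This count depends on the setting, since IFI16, ISG20 and IFITM1 turned positive with array weights. The median of the 8 was -0.30, beside 0 over all genes. By main probe set IFIH1, IFI35, NMI and IRF1 were lower with FGFs in all 3 lines. The share of all genes that were so was not counted. A further IFIH1 probe set was higher with FGFs in Shef3 (0.32) and Shef1 (0.37) and lower in H14 (-1.37). The remaining IFIH1 probe set and the second IRF1 probe set were lower in all 3 lines. No member separated the 3 FGF3+10 arrays from the 3 DFNB arrays, against 1.72% of genes that did so downwards and 1.46% upwards. At these standard errors a difference of the size seen for IFIH1 could not be told from none.

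Whether the lines differed was tested by limma's moderated F statistic, with group and line as terms. None of the 8 genes passed (adjusted p from 0.373 to 0.964), against 0.46% of all genes, and at an unadjusted p below 0.05 limma gave 0 of 8 members and 4016 of 19775 genes. IFI35 came closest (adjusted p = 0.373 by limma), with its highest line mean, 3.44, in H14 and its lowest, 2.46, in Shef1. IFITM1 had line means of 9.14, 10.11 and 9.96 (adjusted p = 0.394 by limma).

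The other genes of the pathway were taken from 5 lists, of which 133 of 142 genes were measured and 54 of those averaged below 4. In FGF3+10 against hESC limma called 0 of 133, against 0.177% of all genes (0.0809% lower and 0.0961% higher), and 24 had an unadjusted p below 0.05, against 2370 of 19775. In DFNB against hESC it called 0 of 133, against 0.202% of all genes (0.086% lower and 0.116% higher), and 34 had an unadjusted p below 0.05, against 3125 of 19775. The cell lines pair the arrays, and with the line as replicate block 2 genes were called in each comparison, PSMB8 and PSMB9. Under that block limma called 115 of 19775 genes in FGF3+10 against hESC and 189 of 19775 in DFNB against hESC. The median difference of all 133 pathway genes was -0.53 in FGF3+10 and -0.35 in DFNB, beside -0.19 over all genes in both. Below all hESC arrays on all 6 day 14 arrays lay 21 of the 133 genes (15.8%, against 8.02% of all genes) and above them 2 (1.5%, against 4.23%). In FGF3+10 alone 28 lay below (21.1%, against 11.3%), and in DFNB alone 39 (29.3%, against 14.3%). Above all hESC arrays lay 2 in FGF3+10 (1.5%, against 5.68%) and 8 in DFNB (6.02%, against 7.8%). These are counts over genes that share arrays and regulation, not a test of the list.

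**Figure D4:**
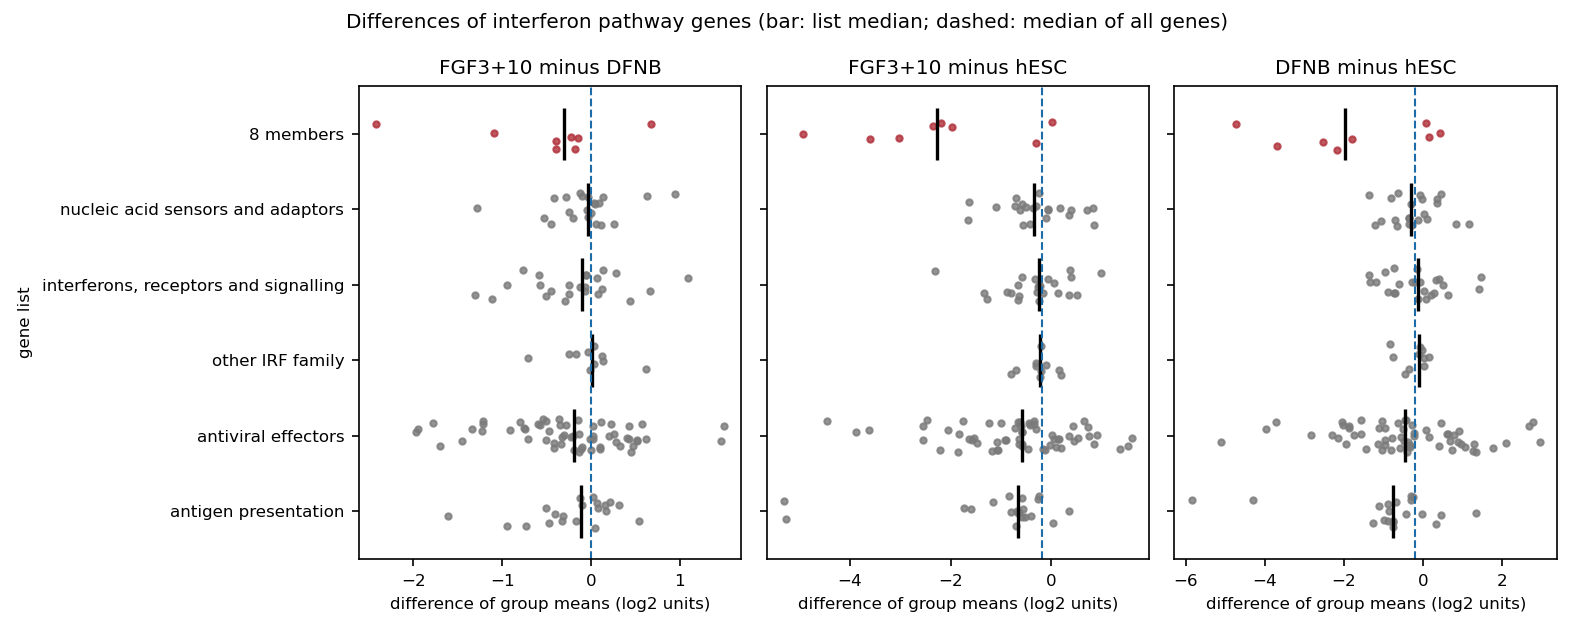
Difference of group means (x axis, log2 units) of every measured gene in the 5 pathway lists and of the 8 members, in 3 comparisons; bars are list medians and the dashed line the median of all genes. The median of the antigen presentation list is -0.66 in FGF3+10 minus hESC and -0.75 in DFNB minus hESC.

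Antigen presentation genes had the lowest medians, -0.66 in FGF3+10 and -0.75 in DFNB. Of 20 genes 18 and 17 were below 0, against 12343 and 11965 of 19775 genes. PSMB8, an interferon-inducible subunit of the immunoproteasome, measured -2.09 in Shef3, 1.16 in H14 and 3.40 in Shef1 with FGF3+10, against 5.59, 6.02 and 6.78 in hESC. In DFNB it measured -1.71, 0.41 and 2.15. All day 14 arrays were below all hESC arrays, with a difference of -5.30 ± 1.37 (SE) in FGF3+10 (adjusted p = 0.178, and 0.0499 with the block, by limma) and -5.85 ± 1.37 in DFNB (adjusted p = 0.116, and 0.0367 with the block). With values below 4 set to 4 both were -2.13. PSMB9, a second immunoproteasome subunit, averaged -1.39 ± 1.38 in FGF3+10, -0.46 ± 2.49 in DFNB and 3.85 ± 0.99 in hESC. Its differences were -5.25 ± 1.21 (adjusted p = 0.136, and 0.0373 with the block, by limma) and -4.31 ± 1.21 (0.164, and 0.0444 with the block), and -0.33 with that floor.

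The 60 measured antiviral effectors had a median of -0.59 in FGF3+10 and -0.44 in DFNB. Of them 42 and 39 were below 0, against 12343 and 11965 of 19775 genes, and none was called in the reported fit. BST2, which tethers virus particles to the cell, measured -2.43 in Shef3, 6.37 in H14 and 6.90 in Shef1 with FGF3+10, against 7.77, 8.95 and 7.45 in hESC. Its FGF3+10 difference of -4.44 ± 2.14 (adjusted p = 0.453 by limma) rested largely on Shef3 and was -1.42 without that array. In DFNB BST2 measured 4.47, 3.31 and 5.18 in the same order of lines, lower than hESC in each, with a difference of -3.73. MX1, a GTPase that traps viral particles, averaged -0.40 ± 0.85 in FGF3+10, -0.50 ± 3.09 in DFNB and 3.47 ± 0.92 in hESC, with an adjusted p of 0.294 and 0.225 for the differences by limma. Without DFNB H14 the DFNB difference of MX1 was -5.75 and passed (adjusted p = 0.0478 by limma), against -3.97 with it. With values below 4 set to 4 the MX1 difference was -0.15 in both media. IDO1, a tryptophan-degrading enzyme, averaged 3.07 ± 3.14 in DFNB and 8.18 ± 0.63 in hESC (adjusted p = 0.251 by limma). Other effectors, named after their values were seen, were higher in DFNB. CXCL10, a chemokine, measured 1.30 in Shef3, -0.91 in H14 and 1.79 in Shef1 with FGF3+10, 1.98, 1.79 and 2.06 in DFNB, and -0.87, -0.59 and -1.13 in hESC. Its DFNB difference of 2.80 did not pass in the reported fit. It passed with array weights, at 2.66 (adjusted p = 0.04 by limma). It also passed without FGF3+10 H14 (adjusted p = 0.038 by limma) and with only the groups compared (adjusted p = 0.0468 by limma). CXCL10 was below 4 on all arrays. The DFNB minus hESC difference was 2.96 for GBP1, an interferon-induced GTPase, 2.69 for IFI44L and 2.10 for IFI6. None of these passed in the reported fit. With array weights GBP1 (3.62, adjusted p = 0.049 by limma) and IFI6 (2.53, adjusted p = 0.027 by limma) passed, as did IDO1 (-6.46, adjusted p = 0.0325 by limma). That setting called 15 of 133 pathway genes, in both directions, and 1612 of 19775 genes in this comparison.

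Named after their values were seen, because all 6 day 14 arrays lay below all hESC arrays, the effectors were APOBEC3B, BST2, EIF2AK2, EPSTI1, HERC5, HERC6, OASL, PARP12, PARP14, PLSCR1, TRIM14 and ZC3HAV1. PARP12, an ADP-ribosyltransferase, measured 4.04 in Shef3, 4.52 in H14 and 4.65 in Shef1 with FGF3+10, 3.46, 4.51 and 4.91 in DFNB, and 6.58, 6.19 and 5.94 in hESC. PARP12 and PARP14 did not pass in the reported fit. With values below 4 set to 4 PARP12 passed in FGF3+10 (adjusted p = 0.0442 by limma) and DFNB (0.0344), and PARP14 in DFNB (0.0385). PARP14 also passed in DFNB among genes with a mean of at least 4 (adjusted p = 0.0448 by limma). With array weights both passed in DFNB (adjusted p = 0.0212 for PARP12 and 0.02 for PARP14 by limma). ZC3HAV1, which binds viral RNA and promotes its decay, had 5.79, 7.80 and 7.32 with FGF3+10, 6.93, 7.51 and 7.37 in DFNB, and 8.99, 8.98 and 8.53 in hESC. EIF2AK2, the kinase PKR, had a difference of -0.46 in FGF3+10 and -0.45 in DFNB. IFIT5 and TRIM5 lay above all hESC arrays, by 0.90 and 0.53 on average in FGF3+10 and by 1.26 and 0.68 in DFNB.

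**Figure D5:**
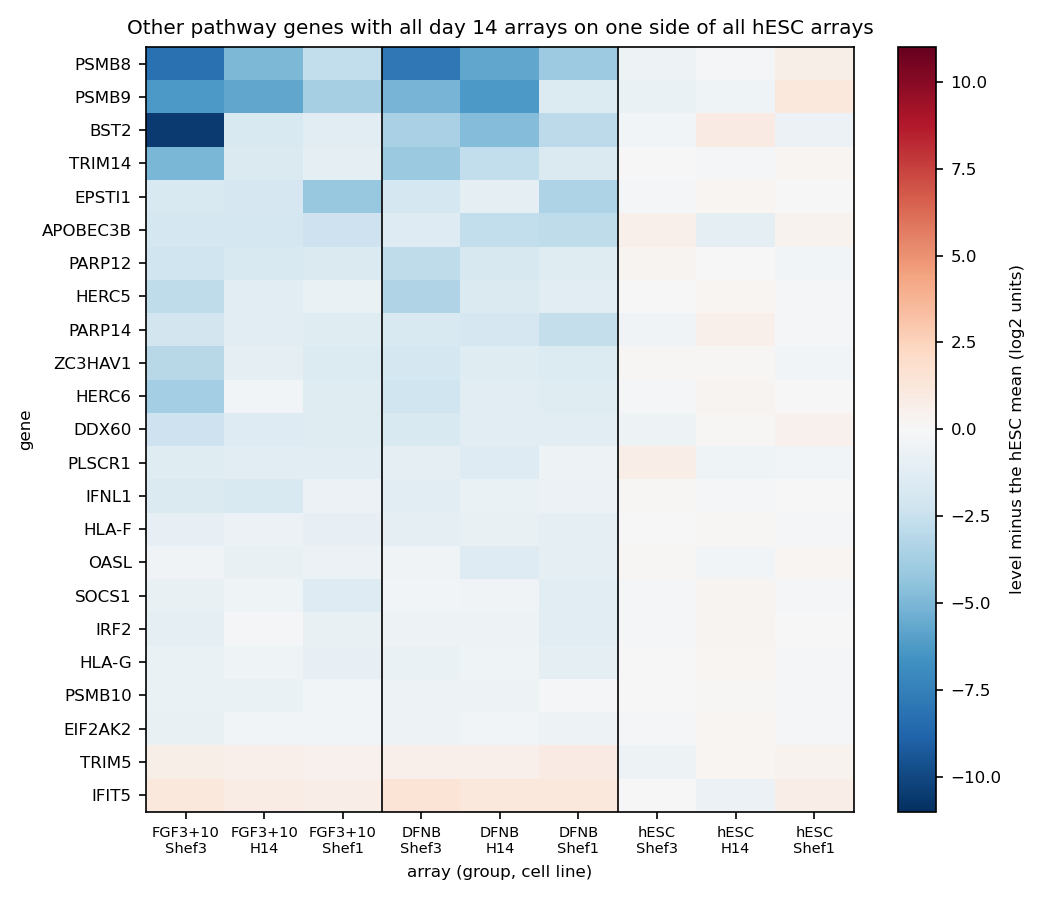
Level minus the hESC mean (colour, log2 units) of the 23 other pathway genes whose 6 day 14 arrays all lie on the same side of the 3 hESC arrays; columns are arrays, rows genes ordered by mean difference. Of these genes 21 are lower at day 14 and 2, TRIM5 and IFIT5, are higher.

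The 22 sensors and adaptors had a median of -0.34 in FGF3+10 and -0.29 in DFNB, with none called. DDX60, a helicase linked to RIG-I signalling, averaged 3.90 ± 0.51 in FGF3+10, 4.18 ± 0.31 in DFNB and 5.55 ± 0.54 in hESC, with differences of -1.65 ± 0.40 and -1.37 ± 0.40 (adjusted p = 0.150 and 0.173 by limma). TICAM1, an adaptor of TLR3, had a difference of -1.63 ± 0.58 in FGF3+10 (adjusted p = 0.309 by limma), or -0.02 with values below 4 set to 4, and NLRX1, a mitochondrial regulator of this signalling, of -1.21 ± 0.53 in DFNB (adjusted p = 0.316 by limma).

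Interferons, their receptors and signalling genes, 24 measured, had a median of -0.26 in FGF3+10 and -0.13 in DFNB, with none called. USP18, which restrains the interferon receptor, averaged 1.22 ± 0.69 in FGF3+10 and 3.52 ± 1.19 in hESC (adjusted p = 0.246 by limma), a difference of -2.30 that was -0.16 with values below 4 set to 4. IFNL1, an interferon of the lambda type, averaged 1.35 ± 0.57 and 2.68 ± 0.16 in the same groups (adjusted p = 0.188 by limma) and was below 4 on all arrays. IFNAR1, a chain of the type I interferon receptor, was higher, at 5.39 ± 0.28 in DFNB and 3.91 ± 0.52 in hESC (adjusted p = 0.177 by limma). IFNK had a difference of 1.43 ± 0.89 in DFNB (adjusted p = 0.458 by limma), which was 0.40 without hESC Shef1 and 2.17 without hESC H14.

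Of the wider IRF family, 10 genes were measured, with a median of -0.22 in FGF3+10 and -0.09 in DFNB and none called. IRF2, which opposes IRF1 at its sites, averaged 4.64 ± 0.40 in FGF3+10, 4.61 ± 0.32 in DFNB and 5.35 ± 0.25 in hESC (adjusted p = 0.439 and 0.316 by limma). IRF4 had a difference of -0.80 ± 0.38 in FGF3+10 and IRF5 of -0.83 ± 0.40 in DFNB (adjusted p = 0.444 and 0.349 by limma), both below 4 on all arrays.

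Between FGF3+10 and DFNB limma called 0 of the 133 pathway genes, as it called 0 of all 19775 genes. An unadjusted p below 0.05 was found for 1 of the 133, ERAP2, against 300 of 19775 genes. ERAP2, a peptidase that trims antigens, averaged -0.02 ± 1.14 with FGFs and 1.59 ± 0.27 without (adjusted p = 1 by limma). IFIT2, which blocks translation of viral RNA, averaged -0.56 ± 1.19 and 1.41 ± 2.11, a difference of -1.97 that was -0.75 without DFNB H14. IFI44L had a difference of -1.95 that was -0.83 without FGF3+10 Shef1 and -3.33 without FGF3+10 Shef3. TICAM1 had -1.28, or -0.80 without FGF3+10 Shef1, and USP18 had -1.11, or -0.70 without DFNB H14. TLR9 had 0.95, or 0.04 without FGF3+10 Shef1, and IRF5 had 0.62, or 0.31 without that array. IFNK had -1.30 (-0.80 without FGF3+10 Shef1), IRF4 -0.71, and PSMB9 -0.94, which turned to 0.46 without DFNB Shef1 and was -0.39 without FGF3+10 Shef3, -1.71 without FGF3+10 Shef1 and -1.94 without DFNB H14. All these had an adjusted p of 1 by limma. ERAP2, IFIT2, TLR9, IFNK, IRF4 and IRF5 were below 4 on all arrays. With values below 4 set to 4 the difference was 0 for TICAM1, USP18 and PSMB9 and -0.28 for IFI44L. On all 3 arrays 4 of the 133 genes lay below all DFNB arrays (3.01%, against 1.72%).

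Between lines 0 of 133 pathway genes passed the F test, against 0.46% of all genes. An unadjusted p below 0.05 was found for 34, against 4016 of 19775 genes. IRF3, which carries the sensors' signal to the interferon promoter, averaged 7.11 (Shef3), 7.08 (H14) and 5.38 (Shef1), with an adjusted p of 0.0664 by limma. RIGI, the founding RIG-I-like receptor, had 5.50, 3.92 and 5.71 (adjusted p = 0.0845 by limma), with H14 the lowest. TAPBP, of antigen loading, had 6.86, 6.85 and 4.97 (adjusted p = 0.0717 by limma), and IFITM2, a relative of IFITM1, 10.61, 10.62 and 9.36 (adjusted p = 0.0872 by limma). CXCL11, a chemokine, had -0.76, -0.48 and 3.01 (adjusted p = 0.0925 by limma). It passed without hESC H14 (adjusted p = 0.0486 by limma). Among genes with a mean of at least 4 limma called IRF3 (adjusted p = 0.023), RIGI (0.0338), TAPBP (0.0265) and IFITM2 (0.0336). With values below 4 set to 4 the adjusted p by limma was 0.0268, 0.0252, 0.0345 and 0.0321 in that order. These were 4 of 79 and 4 of 95 pathway genes tested, against 491 of 11502 and 468 of 13406 genes. IRF9, part of the interferon-activated transcription complex, had 6.01, 5.79 and 4.60, IFNB1, which encodes interferon beta, -1.94, -1.35 and -3.26 (adjusted p = 0.125 each by limma), and PSMB9 -0.18, -0.30 and 2.49 (adjusted p = 0.107 by limma). Poly-A spike-ins averaged 7.43 to 7.50 on the Shef1 arrays and 5.04 to 5.72 on the other arrays. Their part in these differences between lines was not tested.

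The genes whose pattern over the 9 arrays was most like each member's were taken from the other genes with a mean level of at least 4, which were 11501 or 11502 by member. For IFITM1 they were MRPS35 (Pearson r = 0.989) and ZNF600 (0.985), and for NMI ZFYVE21 (0.960) and HSD17B12 (0.959). DHX58 was most like SNAPC1 (0.967) and GATM (0.957), IFI35 like HAX1 (0.975) and RAB9A (0.962), and ISG20 like FGD6 (0.974) and KDSR (0.972). All of these averaged higher in hESC than in both media. IRF1 followed LMNA (0.980) and TAGLN2 (0.973), IFIH1 followed MBP (0.936) and ACSL1 (0.901), and IFI16 followed ZFP36L1 (0.929) and CASP6 (0.925). IFIH1 and IFI16 also correlated with each other, at 0.84. The points share lines and groups, and the best of so many genes is high in any case, so these values are a description.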

How the data were processed

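RNA of 9 cultures (3 groups of 3 cell lines) was amplified and labelled with biotin for Affymetrix 3′ expression arrays, per the labels' protocols. The authors deposited 1 value per probe set on a log scale assumed to be log2; software, background correction and log base were not stated by any source used here. In the deposited table, all array medians were equal. Of 54675 probe sets, 41091 had 1 gene in the platform annotation (1801 had several), and 41037 of these matched a current symbol by Entrez identifier. The probe set with the highest mean stood for a gene. The 8 members and all lists were chosen with earlier results of these data known.

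Tests between groups used limma (version 3.58.1, R 4.3.3; lmFit, eBayes, 1 mean per group, spread shared over 9 arrays), with Benjamini-Hochberg adjustment over 19775 genes and a threshold of 0.05. Lines were compared by the moderated F test with group and line in the model. The fits were tested on simulated data. All 8 members were named, and of each pathway list, up to 5 called genes or else the 2 with the largest absolute difference (for lines, the largest F); for likeness, the 2 genes with the highest correlation. A total of 9 list genes were not analysed here. P-values of the reported group fit measure the spread between arrays of different lines. With the line as block, and in the F test between lines, they measure the spread left after group and line. The same line occurs in every group, so lines pair the arrays: deviations from group means correlated within lines at 0.0861 to 0.713. The reported fit has no block. Alternatives were the line as block, quantile normalisation, only genes with a mean of at least 4, values below 4 set to 4, the mean of probe sets, array weights, only the groups compared, each line left out and, for counts of called genes and for named pathway genes, each array left out.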

Additional observations from a re-analysis of the deposited data

Results flagged for a closer look

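Groups of 3 arrays are too small for a test of outlying samples, and the results given here are genes whose 2 day 14 arrays both lay above the hESC array in some line and both below it in another. None of these differences between lines was tested, and each line has 1 hESC array. For IFIH1 the mean day 14 minus hESC difference was 0.77 in H14 and -4.27 in Shef1, 5.04 apart. For IFI16 it was 0.94 in H14, 0.34 in Shef3 and -1.04 in Shef1, so that H14 and Shef1 were 1.97 apart and Shef3 and Shef1 1.38 apart. For IRF1 it was 0.44 in H14, -0.26 in Shef3 and -0.49 in Shef1, so that H14 stood 0.70 from Shef3 and 0.93 from Shef1. These values are of the main probe sets. The second IRF1 probe set, below 0 on all arrays, went the other way in H14 and Shef3. Its FGF3+10 and DFNB differences from hESC were -0.53 and -0.49 in H14, 0.55 and 0.67 in Shef3, and -0.6 and 0.19 in Shef1. An IFIH1 probe set other than the main one was lower at day 14 in H14 too (-0.66 and -0.4). The third was higher there (0.54 and 1.9), and both were lower in Shef1.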

How the results depend on the processing

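Members called between FGF3+10 and DFNB, members called between lines and pathway genes called between FGF3+10 and DFNB numbered 0 under every alternative run. Between FGF3+10 and DFNB limma called 0 of all genes under each of them too, so those counts could not have come out otherwise. The number of pathway genes called in DFNB against hESC, 0 of 133, became 2 with the line as replicate block, 15 with array weights and 1 with only the groups compared. Among genes with a mean of at least 4 it became 1 of 79 (PARP14), and with values below 4 set to 4 it became 4 of 95 (PSMB8, PARP12, PARP14 and HLA-F). In FGF3+10 against hESC it became 2 with the replicate block, 2 of 95 with values below 4 set to 4 (PSMB8 and PARP12) and 1 with array weights. Between lines it became 4 of 79 among genes with a mean of at least 4, 4 of 95 with values below 4 set to 4, 1 with the mean of probe sets and 35 with array weights. With a single line or array left out, these counts ran from 0 to 1 in DFNB against hESC and between lines. In FGF3+10 against hESC they stayed 0. With a line left out few genes were called at all. Without Shef3, H14 and Shef1 in turn these were 0, 0 and 4 of 19775 in DFNB against hESC. They were 0, 0 and 5 in FGF3+10 against hESC and 9, 9 and 4 between lines, so a pathway count near 0 says little there. Array weights called 1612 of 19775 genes in DFNB against hESC, 284 in FGF3+10 against hESC and 4475 between lines, against 40, 35 and 91 without. Between lines 491 of 11502 genes were called with a mean of at least 4, 468 of 13406 with values below 4 set to 4 and 217 of 19775 with the mean of probe sets. In FGF3+10 against hESC these were 66 with that mean and 123 with that floor, and in DFNB against hESC 122 and 183, or 26 with only the groups compared. PSMB8 and PSMB9 were the genes called with the block, which changed no other call among the pathway genes and the member tests run. The FGF3+10 minus DFNB difference reversed for IFI16 with the mean of probe sets (0.07), with array weights (0.28) and without replicate 1, Shef3 (0.08), for ISG20 with the mean of probe sets (0.33) and array weights (0.21), and for IFITM1 with array weights (0.48) and without Shef3 (0.13); none passed. With each line left out in turn these differences ran from -0.42 to 0.08 for IFI16 and from -0.54 to 0.13 for IFITM1. The cause was not tested. Signal limits DHX58, IFIH1 and ISG20 most, whose levels lay below 4 on 9, 9 and 7 of 9 arrays. Genes below 4 on all arrays could not be fitted with that floor.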
